A study of Oryctolagus cuniculus with 6 samples.

Results

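The 30 genes described here are the semaphorins, plexins and neuropilins of the rabbit facial nerve. They were chosen by name alone, as every gene whose symbol begins with SEMA and a digit, with PLXNA, PLXNB, PLXNC or PLXND, or is NRP1 or NRP2, among 17396 genes listed. They comprise 19 semaphorins, 9 plexins and 2 neuropilins, and all 30 passed the filter on low counts. SEMA6B was not analysed here. RNA-seq was performed on facial nerve tissue from wild-type male Japanese white rabbits. In the FNI group (3 libraries) the main trunk of the facial nerve had been cut, and in the FNI+I-125 group (3 libraries) it had been cut in the same way and an iodine-125 seed, a small sealed source of radiation, had been left beside it. All nerves were collected on day 14, and no uninjured nerve was analysed here, so every comparison is between a cut nerve with and without a seed. The study's methods give 3 rabbits per group, but the labels tie no library to a rabbit, and p-values measure the spread between these libraries.

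Semaphorins are guidance cues that turn or stop a growing axon, and many also act on vessels, immune cells and bone cells. Those of class 3 are secreted and mostly bind neuropilins, which have a short intracellular tail and pass the signal through a plexin held in the same complex. Those of classes 4, 5 and 6 span the membrane, the class 7 member is tethered by a lipid anchor, and these bind plexins directly. Plexins act on small GTPases inside the cell, and the growth cone then loses its grip and its actin filaments. In a cut nerve, semaphorins from scar fibroblasts and Schwann cells are among the cues that a regrowing axon meets.

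Libraries held 16031151 to 16798012 counts in all, and the 30 genes took 0.228% to 0.511% of them. Levels are given as CPM, counts per 1000000 after TMM normalization, and serve to compare libraries for the same gene, since they are not corrected for transcript length. The libraries differed in tissue content within each group. All 15 Schwann cell markers had counts in every library, with a summed CPM of 8195, 4602 and 40494 across the FNI replicates, in order, against 891, 4234 and 1997 across the FNI+I-125 replicates. FNI replicate 3 thus had the highest sum, and all 15 markers were lower on average in the FNI+I-125 group. In bulk tissue, fewer cells of a type and less RNA per cell cannot be told apart. Skeletal muscle markers (10 of the 14 listed by name in the files) summed to 171, 81.5 and 108 across the FNI replicates, in order, against 5111, 4573 and 60.9 across the FNI+I-125 replicates, so FNI+I-125 replicates 1 and 2 stood apart. Salivary gland markers (8 of 12) summed to 2925, 49783 and 27.3 across the FNI replicates, in order, against 658, 43.4 and 141 across the FNI+I-125 replicates, most of it in FNI replicate 2. Macrophage markers (10 of 12) summed to 296 to 1038 without a seed against 1224 to 1819 with one, and all 10 were higher on average with the seed. Neutrophil markers (9 listed, 8 tested, 7 of these higher) summed to 9.87 to 151 without a seed against 602 to 1344 with one. MMP9 alone held 710 of the 756 CPM in FNI+I-125 replicate 2 and 503 of the 602 CPM in replicate 3. The mean log2(CPM + 1) of the neutrophil list, with equal weight per gene, overlapped. It was 0.92 to 3.43 without a seed and 3.16 to 5.55 with one. Endothelial markers (9 of 10) summed to 2559.6 to 3097 without a seed against 1897 to 3036 with one, and 8 were lower on average. No sequencing batch is given for any library.

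The comparison asks which guidance genes differ between a cut nerve with a seed and a cut nerve without one. None of the 30 genes met the study's criterion of an adjusted p under 0.05 with |log2 FC| of 1.5 or more in edgeR's quasi-likelihood test, and neither did any of the 14003 genes tested (0%). DESeq2 called 2 of the 30, against 2.98% of all genes, and limma-voom called 0. With no fold criterion DESeq2 had 6 of the 30 at an adjusted p under 0.05, against 6.67% of all genes. At an unadjusted p under 0.05 in edgeR, 9 of the 30 genes (30%) passed, against 17% of all genes. Of these, NRP2, PLXNA2, PLXNC1 and SEMA4D were the 4 with higher levels in seeded nerves (background 9.23%). The 5 that were lower, SEMA3B, SEMA4G, SEMA5A, SEMA5B and SEMA6A, were semaphorins (background 7.73%). All 9 had an adjusted p of 0.280 in edgeR's test with Benjamini-Hochberg adjustment. For 13 of the 30 genes (43.3%) the 3 libraries of one group lay above all 3 of the other, against 27.2% of all genes. In 6 of these the FNI+I-125 libraries were the higher (background 14.8%) and in 7 the lower (background 12.3%).

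**Figure D1:**
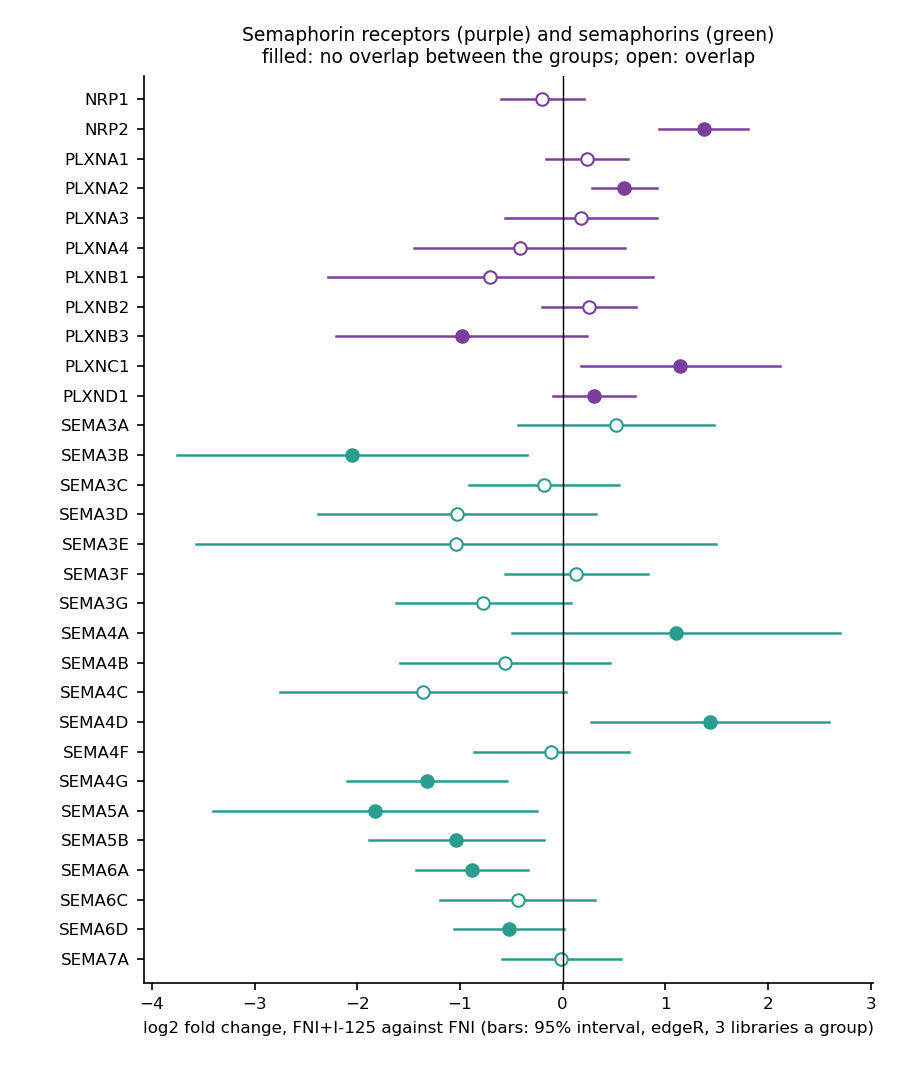
Log2 fold change of each of the 30 genes between the FNI+I-125 and FNI groups, with 95% intervals from edgeR (3 libraries a group). Filled points mark the 13 genes whose groups did not overlap. NRP2 at 1.37 has a short interval, while SEMA3B at -2.05 and SEMA5A at -1.83 have wide ones.

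NRP2 had the smallest p-value of the 30 genes and stood about 2.59-fold higher with the seed. Neuropilin 2 is the receptor through which SEMA3F repels axons, and it also binds VEGFC on lymphatic endothelium. Its level was 134, 168 and 139 CPM without a seed (FNI replicates 1 to 3) and 344, 453 and 347 CPM with one (FNI+I-125 replicates 1 to 3), from 2292, 2663 and 2358 counts against 5260, 7444 and 5916. The lowest FNI+I-125 library was thus at more than double the highest FNI library. The group means were 147 ± 18.1 CPM in the FNI group and 381 ± 62.1 CPM in the FNI+I-125 group (SD, n = 3 each). The log2 fold change was 1.37 (standard error 0.18, unadjusted p = 2.4e-04 in edgeR's test), and the exact permutation test gave p = 0.1, the smallest that 3 against 3 libraries allow. DESeq2 gave 1.36 with an adjusted p of 8.6e-09, below the fold criterion. Refits that each lacked 1 library gave 1.21 to 1.48, with an unadjusted p of at most 0.00202 in edgeR.

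NRP1, the other neuropilin and the receptor that SEMA3A needs to repel axons, had no such separation. Its level was 374, 347 and 306 CPM without a seed (FNI replicates 1 to 3) and 336, 306 and 253 CPM with one (FNI+I-125 replicates 1 to 3), and the groups overlapped. The log2 fold change was -0.20 with a 95% interval of -0.60 to 0.20 (edgeR, adjusted p = 0.523). The ratio of NRP2 to NRP1 within a library, which no scaling between libraries can alter, was 0.359, 0.483 and 0.456 without a seed. With one it was 1.02, 1.48 and 1.37 (exact permutation test, two-sided, p = 0.1). Every seeded nerve therefore had more NRP2 relative to NRP1 than any nerve without a seed.

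Of the A plexins, the partners of neuropilins in class 3 signaling, PLXNA2 was the one with separate groups. It is also a direct receptor of SEMA6A. PLXNA2 stood at 50.4, 52.5 and 42.3 CPM without a seed (FNI replicates 1 to 3) and 78.6, 72.6 and 69.1 CPM with one (FNI+I-125 replicates 1 to 3). The spread within each group was small beside the gap between them, and the log2 fold change was 0.60 (standard error 0.13, edgeR, unadjusted p = 0.00332). PLXNA2 kept an unadjusted p of at most 0.0142 in edgeR with any library left out, and DESeq2 gave it an adjusted p of 0.00667. PLXNA1, which also pairs with SEMA6D on immune and bone cells, had 117, 105 and 116 CPM in the unseeded nerves, by replicate, and 110.5, 129 and 158 CPM in the seeded ones. Its libraries overlapped, with a log2 fold change of 0.24 and an interval of -0.16 to 0.63. PLXNA3, at 59.7, 41.6 and 48.8 CPM against 78.6, 36.4 and 54.8 CPM, and PLXNA4, at 11.9, 17.8 and 7.80 CPM against 6.54, 7.61 and 13.9 CPM, overlapped as well.

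The B plexins are receptors of class 4 semaphorins, and PLXNB3 binds SEMA5A. PLXNB3 was lower in each FNI+I-125 library than in any FNI library, at 166, 166 and 207 CPM without a seed (FNI replicates 1 to 3) and 34.3, 88.7 and 149 CPM with one (FNI+I-125 replicates 1 to 3). Replicate 1 was far below the others, and replicate 3 came close to the FNI libraries. This gave a log2 fold change of -0.98 (standard error 0.50, edgeR, unadjusted p = 0.0973). PLXNB1, the receptor of SEMA4D, had 93.2, 57.3 and 159.8 CPM against 31.2, 35.7 and 124 CPM, in the same order of libraries. Its FNI+I-125 replicates 1 and 2 were below every FNI library and replicate 3 was not, so the groups overlapped. Leaving out that library moved the log2 fold change of PLXNB1 from -0.70 to -1.64 (edgeR, unadjusted p = 0.0168) and that of PLXNB3 to -1.55 (edgeR, unadjusted p = 0.0172). For PLXNB3 it was -0.59 without FNI+I-125 replicate 1. The libraries low in both B plexins are those in which the muscle markers summed to 5111 and 4573 CPM, against 60.9 CPM in replicate 3, and the part of muscle RNA in this was not tested. PLXNB2, a receptor of SEMA4C found in many tissues, stood at 145, 123 and 108 CPM against 124, 147 and 179 CPM, with a log2 fold change of 0.26 and an interval of -0.20 to 0.72.

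PLXNC1, a receptor of SEMA7A present on myeloid cells, was higher in all 3 FNI+I-125 libraries. It had few counts, with 117, 115 and 50 counts against 248, 169 and 192, or 6.85, 7.24 and 2.96 CPM against 16.2, 10.3 and 11.3 CPM. In edgeR its log2 fold change was 1.15 (standard error 0.40, unadjusted p = 0.0278). This value was 0.92 without FNI+I-125 replicate 1, where the unadjusted p from edgeR was 0.0886. PLXND1, the endothelial receptor of SEMA3E, stood at 352, 371 and 272 CPM without a seed (FNI replicates 1 to 3) and 395, 412 and 423 CPM with one (FNI+I-125 replicates 1 to 3). Its groups did not overlap either, but the difference was small, at 0.31 on the log2 scale with an interval of -0.09 to 0.70. SEMA7A itself, which binds PLXNC1 and integrins, had means of 27.8 ± 6.53 CPM in the FNI group and 27.5 ± 5.31 CPM in the FNI+I-125 group (SD, n = 3 each). Its log2 fold change was -0.01 with an interval of -0.59 to 0.57, and its libraries were interleaved at 21.1, 34.2 and 28.0 CPM against 21.4, 30.0 and 31.2 CPM.

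**Figure D2:**
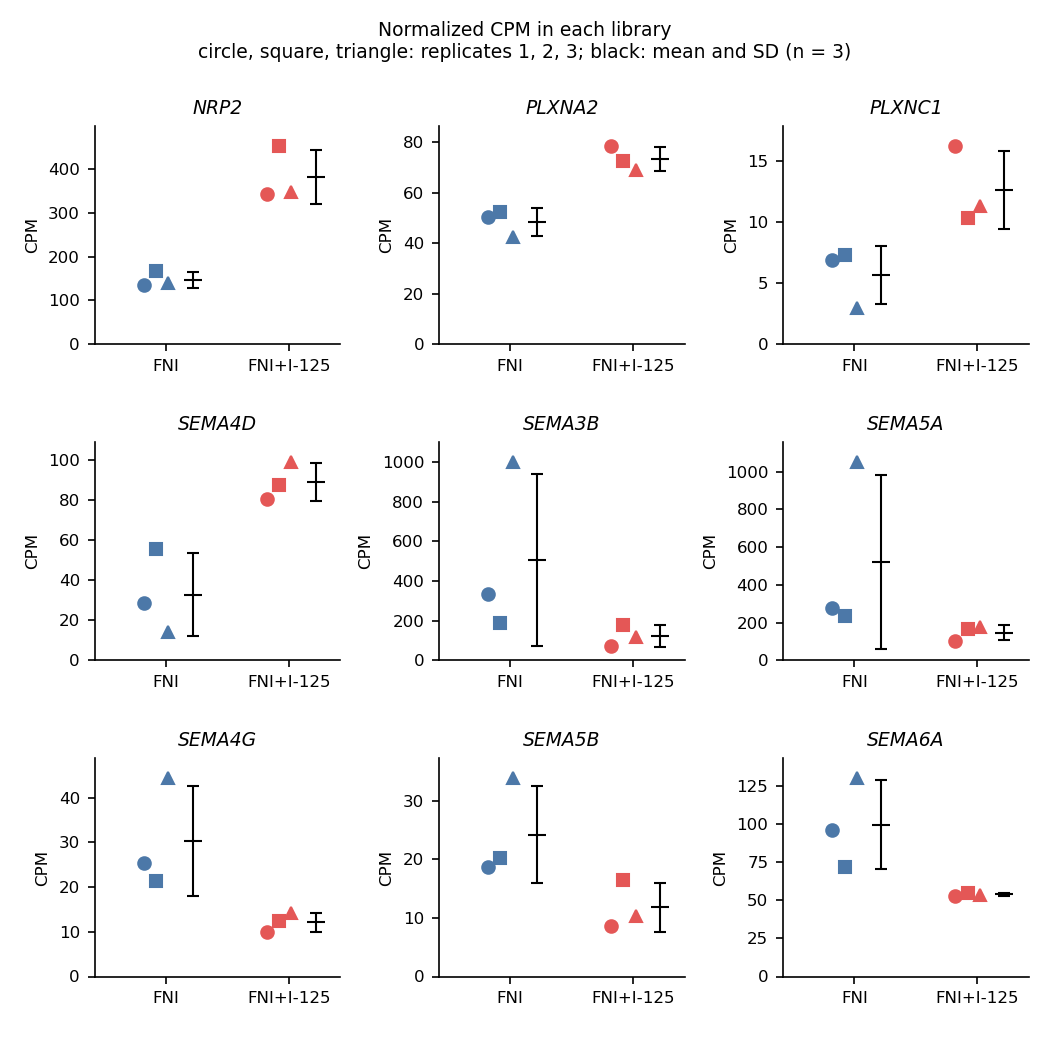
CPM in each library for the 9 genes with an unadjusted p under 0.05 in edgeR. Points are libraries, with circles, squares and triangles for replicates 1, 2 and 3, and black bars show the mean and SD (n = 3). The 3 receptors and SEMA4D lie higher in every FNI+I-125 library, while the triangles of FNI replicate 3 stand far above the other points for SEMA3B and SEMA5A.

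Among the secreted class 3 semaphorins, SEMA3B had the largest difference of the 30 genes. SEMA3B signals through both neuropilins. Its level was 335, 186 and 999.9 CPM without a seed (FNI replicates 1 to 3) and 70.1, 178 and 119 CPM with one (FNI+I-125 replicates 1 to 3). FNI replicate 3 was about 3.84 times the mean of the other FNI libraries, and replicate 2 of one group lay close to replicate 2 of the other. The group means were 507 ± 433 CPM in the FNI group and 122 ± 53.9 CPM in the FNI+I-125 group (SD, n = 3 each), and the log2 fold change was -2.05 (standard error 0.70, edgeR, unadjusted p = 0.0259). DESeq2 gave -2.06 with an adjusted p of 0.0324 and so called it. With FNI replicate 3 left out, edgeR gave -1.10 (unadjusted p = 0.0604). The unadjusted p was also 0.0797 without FNI+I-125 replicate 1 and 0.0685 without replicate 3 of that group.

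The other class 3 genes overlapped between the groups. SEMA3A, the classical repellent of sensory and motor axons, had 9.02, 9.83 and 10.4 CPM without a seed (FNI replicates 1 to 3) and 22.2, 7.79 and 12.0 CPM with one (FNI+I-125 replicates 1 to 3). Its one high library was FNI+I-125 replicate 1, without which the log2 fold change went from 0.52 to 0.02. SEMA3D, at 31.3, 22.1 and 95.9 CPM against 22.0, 26.0 and 25.4 CPM, and SEMA3E, at 4.33, 2.52 and 35.0 CPM against 3.40, 6.88 and 10.1 CPM, were lower on average with the seed through the high value of FNI replicate 3. Without this library their log2 fold changes went from -1.02 to -0.15 and from -1.04 to 0.96, a change of sign for SEMA3E. SEMA3C, which guides neural crest cells to the heart, had 149, 137 and 257 CPM against 125, 161 and 194 CPM and an interval of -0.91 to 0.55 on the log2 scale. SEMA3F, the ligand of NRP2, had 137, 102 and 75.4 CPM against 134, 82.4 and 127 CPM, a log2 fold change of 0.13 and an interval of -0.56 to 0.83. SEMA3G, made by endothelium, was at 30.9, 51.2 and 80.6 CPM against 29.1, 36.7 and 29.4 CPM (log2 fold change -0.77, interval -1.63 to 0.08).

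Class 4 held genes with opposite differences. SEMA4D, known as CD100, is carried by T cells and other leukocytes and makes growth cones collapse through PLXNB1. It stood at 28.7, 55.6 and 14.3 CPM without a seed (FNI replicates 1 to 3) and 80.4, 87.3 and 99.0 CPM with one (FNI+I-125 replicates 1 to 3), so that every seeded nerve was higher. The group means were 32.9 ± 20.9 CPM in the FNI group and 88.9 ± 9.42 CPM in the FNI+I-125 group (SD, n = 3 each), with a log2 fold change of 1.44 (standard error 0.47, edgeR, unadjusted p = 0.0228). SEMA4A, expressed by dendritic cells and T cells, had 16.8, 21.9 and 3.01 CPM against 26.1, 31.2 and 32.4 CPM. Its groups did not overlap, and its log2 fold change of 1.11 (standard error 0.65) had an interval of -0.49 to 2.70. Both were lowest in FNI replicate 3 and highest, among FNI libraries, in replicate 2. The macrophage markers had that order in the FNI libraries, with a summed CPM of 795, 1038 and 296 by replicate. In the FNI+I-125 libraries they did not share the order of SEMA4D and SEMA4A. Their sum there was 1558, 1819 and 1224, lowest in replicate 3, where both genes were highest. None of the 10 macrophage markers was at 0 in a library. T and NK cell markers (10 of 12) summed to 13.1, 26.3 and 3.61 CPM without a seed, by replicate. With one the sum was 28.5, 78.2 and 21.5 CPM, so it was lowest in replicate 3 of both groups. All 7 tested were higher on average, 0 of them at an unadjusted p under 0.05 in edgeR. Of the 10, CD3G, NKG7 and PRF1 were at 0 in at least 1 library. The part of these cells in the values of SEMA4D, SEMA4A, PLXNC1 and NRP2 was not tested. SEMA4D had a log2 fold change, without FNI replicate 3, of 1.06 (edgeR, unadjusted p = 0.0170) and, without FNI replicate 2, of 2.05. Leaving out FNI replicate 1, FNI+I-125 replicate 2 or FNI+I-125 replicate 3 took its unadjusted p in edgeR's test to 0.0721, 0.0537 and 0.0574. For SEMA4A the value without FNI replicate 3 was 0.61.

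SEMA4G was the class 4 gene that was lower in each seeded nerve. It is a transmembrane semaphorin whose roles are less well known. SEMA4G stood at 25.4, 21.4 and 44.3 CPM without a seed (FNI replicates 1 to 3) and 9.94, 12.4 and 14.2 CPM with one (FNI+I-125 replicates 1 to 3), from 434, 339 and 750 counts against 152, 203 and 242. The log2 fold change was -1.32 (standard error 0.32, edgeR, unadjusted p = 0.00605), and its unadjusted p stayed at or under 0.0241 with any library left out. DESeq2 gave an adjusted p of 0.0106. SEMA4C, the ligand of PLXNB2, had 95.7, 89.5 and 326 CPM against 54.3, 55.3 and 89.7 CPM. FNI replicate 3 stood far above the rest, and the log2 fold change moved from -1.36 to -0.50 without it. SEMA4B had 88.6, 57.4 and 76.7 CPM against 33.6, 32.9 and 84.5 CPM, with FNI+I-125 replicates 1 and 2 low and replicate 3 within the FNI range, as for PLXNB1. Its log2 fold change of -0.56 became -1.17 without that library (edgeR, unadjusted p = 0.00349). SEMA4F, at 12.2, 13.2 and 20.8 CPM against 19.1, 12.8 and 11.0 CPM, overlapped.

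Both class 5 semaphorins, which carry thrombospondin repeats and can attract or repel axons, were lower in every FNI+I-125 library. SEMA5A stood at 276, 236 and 1050.4 CPM without a seed (FNI replicates 1 to 3) and 99.5, 166 and 174 CPM with one (FNI+I-125 replicates 1 to 3). FNI replicate 3 was again the high library, at 4.11 times the mean of the other FNI libraries. The log2 fold change of SEMA5A was -1.83 (standard error 0.64, edgeR, unadjusted p = 0.0295). DESeq2 called it, with -1.84 and an adjusted p of 0.0446. In the libraries without FNI replicate 3 the difference was smaller but had an unadjusted p of 0.0293 in edgeR, at a log2 fold change of -0.82. Leaving out any 1 FNI+I-125 library took this p to 0.0574 to 0.0918. SEMA5B had 18.7, 20.2 and 33.9 CPM against 8.56, 16.6 and 10.4 CPM, a log2 fold change of -1.03 (standard error 0.35, edgeR, unadjusted p = 0.0252). Its value was -0.73 without FNI replicate 3, -0.85 without FNI+I-125 replicate 1 and -0.95 without FNI+I-125 replicate 3, each with an unadjusted p over 0.05 in edgeR.

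In class 6, SEMA6A was lower in each seeded nerve. SEMA6A is a ligand of PLXNA2 and PLXNA4 and keeps motor neuron cell bodies inside the spinal cord. The FNI libraries held 96.2, 71.8 and 129.9 CPM, and the FNI+I-125 libraries were close together at 52.9, 54.7 and 53.6 CPM. This was a log2 fold change of -0.89 (standard error 0.22, edgeR, unadjusted p = 0.00727). With each library left out it lay between -1.07 and -0.66, with an unadjusted p of at most 0.0253 in edgeR, and DESeq2 gave an adjusted p of 0.0200. SEMA6D, a ligand of PLXNA1, was also lower without overlap at 43.6, 39.6 and 62.5 CPM against 37.6, 28.1 and 35.9 CPM, with a log2 fold change of -0.52 and an interval of -1.06 to 0.02. SEMA6C overlapped at 60.1, 51.3 and 99.9 CPM against 66.0, 49.2 and 40.7 CPM.

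**Figure D3:**
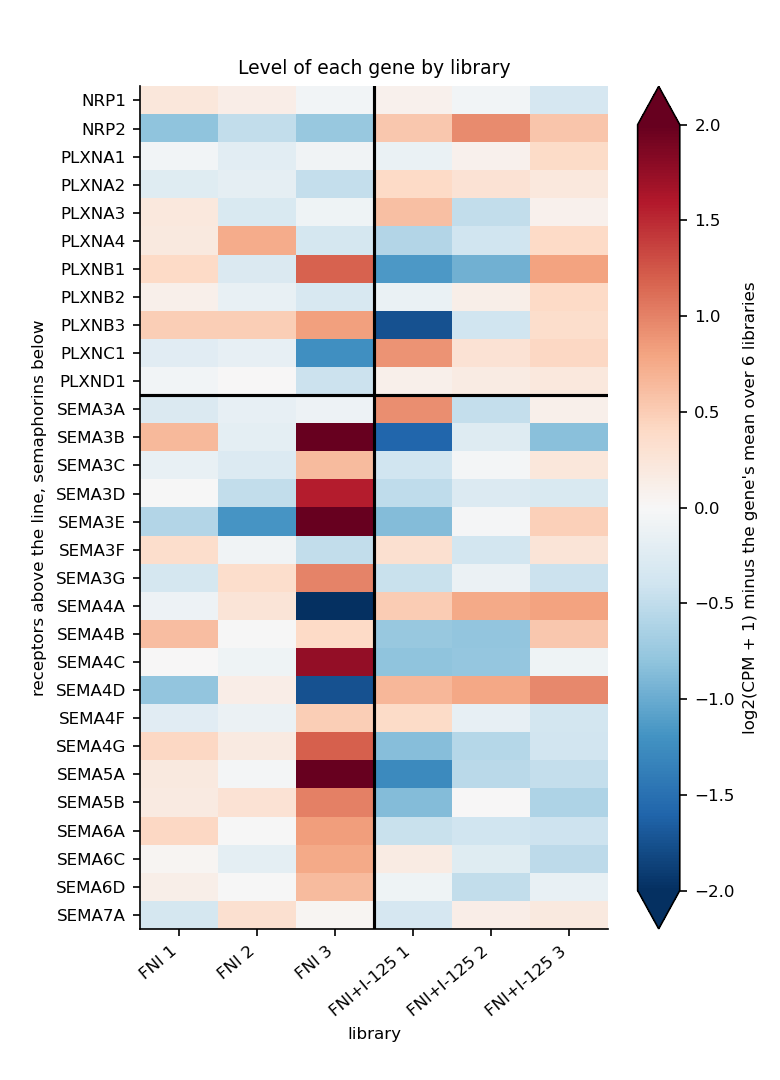
Level of each gene in each library as log2(CPM + 1) minus the gene's mean over the 6 libraries, with receptors above the black line and semaphorins below. Colours end at -2 and 2. FNI replicate 3 holds the highest value of 13 of the 19 semaphorins, and NRP2 is above its mean in the 3 FNI+I-125 libraries alone.

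The genes can also be counted by role, whether or not they passed a test. Of the 19 semaphorins, 15 had a negative log2 fold change, with a median of -0.56, and of the 11 receptors 7 had a positive one, with a median of 0.24. Over all 14003 genes, 7161 had a positive one, with a median of 0.01. At an unadjusted p under 0.05 in edgeR, 5 ligands were lower and 1 higher, and 3 receptors were higher and 0 lower. Without FNI replicate 3 the median of the ligands was -0.15, with 13 of 19 below 0, and that of the receptors was 0.14. For the receptors, leaving out FNI+I-125 replicate 3 gave a median of 0.10, and leaving out FNI+I-125 replicate 1 gave 6 of 11 above 0. The summed CPM of the ligands was 1479, 1221 and 3444 across the FNI replicates, in order, against 915, 1075 and 1194 across the FNI+I-125 replicates. That of the receptors was 1510.4, 1456 and 1409.9 across the FNI replicates, in order, against 1555, 1698 and 1782 across the FNI+I-125 replicates. Both sums separated the groups, but each rested on its leading genes. With NRP2 left out, the other 10 receptors summed to 1376, 1288 and 1271 against 1211, 1245 and 1435 CPM, and the groups overlapped. With SEMA3B and SEMA5A left out, the other 17 ligands summed to 868, 800.0 and 1394 against 746, 731 and 901 CPM, and the groups overlapped as well. The mean log2(CPM + 1), in which each gene has equal weight, also overlapped, at 5.40 to 6.11 without a seed and 5.14 to 5.41 with one for the ligands and 6.21 to 6.40 without a seed and 6.27 to 6.69 with one for the receptors. The ratio of the sums within a library was 0.979, 0.839 and 2.44 without a seed and 0.589, 0.633 and 0.670 with one. It depends on transcript lengths and can be read between libraries only. SEMA3B and SEMA5A made up 34.5% to 59.5% of the ligand sum without a seed and 18.5% to 32.0% with one. Without these genes the ratio was 0.575, 0.550 and 0.988 against 0.480, 0.430 and 0.505, without overlap. With NRP2 left out too, it was 0.631, 0.621 and 1.10 against 0.616, 0.587 and 0.628, and the groups overlapped. These omissions were chosen after the values were seen. FNI replicate 3, with the highest ratio, also had the highest Schwann cell marker sum, and the 5 adipocyte markers summed to 1603 to 4292 without a seed against 1013 to 1473 with one. The part of Schwann cells and adipocytes in the ligand values was not tested.

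**Figure D4:**
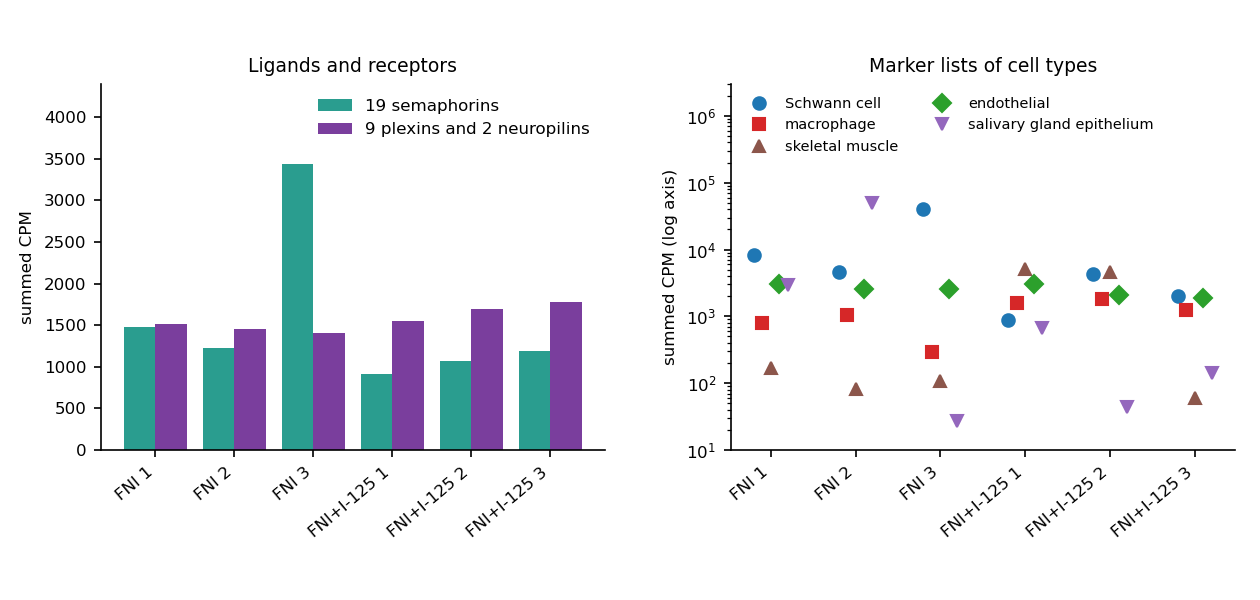
Left, summed CPM of the 19 semaphorins and of the 11 receptors in each library. Right, summed CPM of marker lists of 5 cell types on a log axis. The ligand bar is highest in FNI replicate 3, where the Schwann cell markers reach 40494 CPM. Of the receptor bars, those of the FNI+I-125 libraries are the 3 highest. Bars can be compared between libraries only.

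Known ligands and receptors can be set beside each other. NRP2 was higher while its ligand SEMA3F had no separate groups, with log2 fold changes of 1.37 and 0.13. SEMA4D was higher at 1.44, while PLXNB1 stood at -0.70. PLXNC1 was higher at 1.15, with SEMA7A at -0.01. SEMA6A and its receptor PLXNA2 differed in opposite directions, at -0.89 and 0.60, without overlap in either gene. SEMA5A and PLXNB3 were both lower without overlap, at -1.83 and -0.98. No difference between a ligand and its receptor was tested.

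Other genes of the pathway were taken from lists of co-receptors, of other neuropilin ligands and of proteins that carry the plexin signal. None of the 60 tested met the study's criterion in edgeR, and DESeq2 called 2, NRCAM and CD72, against 2.98% of all genes. At an unadjusted p under 0.05, 9 were higher and 5 lower, which is 23.3% against 17% of all genes, and the median log2 fold change was 0.11. Among the 19 co-receptors, 3 were higher (background 9.23%) and 5 lower (background 7.73%). NRCAM, the adhesion molecule that joins NRP2 in the SEMA3F receptor, stood at 14.1, 10.5 and 21.9 CPM against 2.75, 5.66 and 4.29 CPM (log2 fold change -1.87, standard error 0.39). Its relative CHL1, a partner of NRP1, was at 81.8, 82.8 and 76.6 CPM against 23.5, 49.4 and 43.0 CPM (-1.06, standard error 0.28). FLT1, a VEGF receptor that binds neuropilins, was at 104, 92.9 and 104 CPM against 81.3, 73.8 and 71.4 CPM (-0.41, standard error 0.11). NRCAM and CHL1, both adhesion molecules of the L1 family, were thus lower in every seeded nerve. L1CAM of the same family, named after its values were seen, overlapped at 271, 230.0 and 111 CPM against 60.1, 153 and 249.9 CPM (-0.40, standard error 0.57). Higher were CD72, the SEMA4D receptor of B cells, at 1.17, 1.76 and 0.0591 CPM against 7.19, 6.15 and 6.81 CPM (2.74, standard error 0.91), and PTK7, a plexin partner, at 50.7, 61.5 and 24.0 CPM against 197, 73.4 and 108 CPM (1.48, standard error 0.49). TYROBP, the adaptor that PLXNA1 uses in myeloid cells, was at 65.7, 93.4 and 16.6 CPM against 164, 233 and 137 CPM (1.60, standard error 0.61), and it is also one of the macrophage markers. Without FNI+I-125 replicate 1, the log2 fold change of PTK7 was 1.00.

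Among the 5 other neuropilin ligands tested, TGFB1 alone had an unadjusted p under 0.05, at 36.1, 36.7 and 15.2 CPM against 72.1, 62.9 and 56.1 CPM (1.12, standard error 0.35). VEGFA and VEGFC, named after their values were seen, had log2 fold changes of -0.01 and 0.43 with overlap. Of the 36 signal transduction genes tested, 5 were higher at that p and 0 lower. The 13.9% that passed was less than the 17% of all genes in either direction, but above the 9.23% that were higher. Every seeded library exceeded every unseeded one in 12 of the 36 (background 14.8%), and the reverse held in 1 (background 12.3%). The list, with 37 genes in the files, had a summed CPM of 4369 to 4444 without a seed against 5120 to 5187 with one. MICAL2, of the MICAL enzymes that oxidize actin downstream of plexins, stood at 29.3, 25.8 and 17.3 CPM against 72.4, 44.7 and 58.8 CPM (1.28, standard error 0.27). MICAL1 was at 72.0, 51.0 and 47.7 CPM against 91.1, 90.0 and 81.7 CPM (0.62, standard error 0.18), and RAP1B, a GTPase that plexins switch off, was at 123, 130.3 and 113 CPM against 188, 186 and 151 CPM (0.52, standard error 0.14). For all of these the adjusted p in edgeR was over 0.05, the smallest being 0.280.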

How the data were processed

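Facial nerve RNA of 6 libraries was analysed, 3 per group, with groups taken from the sample titles. The titles read ctrl and Itrans and do not name the injury or the seed. They were read as FNI and FNI+I-125, the groups whose sequencing the paper reports. The authors selected mRNA with oligo dT, used a stranded kit and deposited raw counts per gene, 1 file per library, without normalization. The submitters' processing notes name HISAT2 and OryCun2.0. The counting program and its strand setting are not given in the sources used here. Of 2992 LOC identifiers, 542 were named through RefSeq's genes for mOryCun1.1, and none of these is a semaphorin, plexin or neuropilin. No coordinates are given, since the builds differ.

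Counts were tested in R 4.3.3 with edgeR 4.0.16 (TMM, filterByExpr with a minimum count of 10, glmQLFit and glmQLFTest), as a two-sided test, and p-values of all 14003 genes were adjusted by Benjamini-Hochberg. The criterion for a call (adjusted p < 0.05, |log2 FC| ≥ 1.5) is the study's. DESeq2 1.42.0 and limma-voom (limma 3.58.1) were alternatives, as were other normalizations and filters, a block on replicate number, and omission of each library. Single values were compared by the exact permutation test of log2(CPM + 1). The biological coefficient of variation was 43.0%. The scripts were tested on simulated data. The genes and lists were chosen with earlier results of these data known. Every gene is named, with full values for those at an unadjusted p under 0.05, those without overlap, and the highest in CPM of each class. Of each pathway list, up to 3 genes per direction with the smallest p under 0.05 are named.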

Additional observations from a re-analysis of the deposited data

How the results depend on the processing

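Library sizes only, upper-quartile factors, library sizes without muscle and gland genes, omitting the low-count filter, requiring 10 counts in all libraries, limma-voom, the replicate block and every leave-one-out fit left 0 of the 30 genes at the study's criterion. DESeq2 gave 2, SEMA3B and SEMA5A, and replacing the adjusted p by the unadjusted one also gave 2. DESeq2 called 2 of the other pathway genes where edgeR called 0, and leaving out each library gave 0 to 0. The number of genes lower at an unadjusted p under 0.05, 5 with all libraries, was 8 with DESeq2, 8 with the replicate block, and 2 to 8 with each library left out, with 8 without FNI replicate 2, 3 without FNI replicate 3 and 2 without FNI+I-125 replicate 1. The number higher was 3 to 5 against 4. With each library left out, 14 to 17 genes had no overlap, against 13, and the share over all genes rose too, to 34.2% to 40.6%. This leave-one-out count and glmQLFit with legacy = FALSE, which gave the same 0, 4 and 5, were chosen after seeing the data. Same-numbered libraries of the groups did not deviate together (Pearson's r of their deviations across genes 0.05, -0.19 and -0.14). Differently numbered ones had an r of -0.29 to 0.30. These values thus gave no sign of pairing by replicate number, but with 3 libraries per group they cannot exclude it. Log2 fold changes of the genes given in full changed sign in 3 of 252 refits, all for SEMA7A (-0.01 with all libraries), at 0.0031 with limma-voom, 0.16 without FNI replicate 2 and 0.14 without FNI+I-125 replicate 1; leaving out single libraries gave -0.18 to 0.16. With 3 libraries per group and a median of 2.01 prior degrees of freedom, small differences of variable genes were not detectable.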

Other observations

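FNI replicate 2 and FNI+I-125 replicate 2 had nearly the same summed CPM of Schwann cell markers, 4602 and 4234. This pair was chosen after values were seen, and with 1 library each it has no test. SEMA3B stood at 186 CPM in the former and 178 CPM in the latter. SEMA5A stood at 236 and 166 CPM, and SEMA6A at 71.8 and 54.7 CPM. SEMA4G, at 21.4 and 12.4 CPM, and NRP2, at 168 and 453 CPM, differed most among these.

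Within the FNI group, 6 of the 30 genes were more than 2 times higher in replicate 3 than the mean of replicates 1 and 2, namely SEMA3E, SEMA5A, SEMA3B, SEMA3D, SEMA4C and PLXNB1. The largest ratio was that of SEMA3E, at 10.2. SEMA4A, SEMA4D and PLXNC1 were under 0.5 times that mean, at 0.156, 0.339 and 0.419. NRP2, at 0.923, and SEMA7A, at 1.01, were near 1.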
